A study of Homo sapiens with 52 samples.

Results

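The genes described here were 10 immediate early genes, selected by name from the 27043 genes of each expression table: FOS, FOSB, FOSL1, FOSL2, JUN, JUNB, EGR1, EGR2, EGR3 and IER2. A filter on low values kept 16359 genes for testing, and 9 of the 10 were among them. EGR3 did not reach 1 TPM, a unit of transcript number corrected for gene length and library size, in any of the 52 libraries and was not tested.

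Immediate early genes are transcribed within minutes of a stimulus, without the need for new protein. FOS and JUN proteins pair through leucine zippers to form the AP-1 transcription factor, whereas EGR proteins bind GC-rich DNA through zinc fingers. Growth factor signals reach many of these genes through the RAS, RAF, MEK and ERK kinases, whose targets at the promoter include ternary complex factors bound beside serum response factor (SRF) at CArG boxes.

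RNA-seq had been carried out on fusion-positive rhabdomyosarcoma (FP-RMS) cells, a muscle-lineage tumour line that carries the PAX3-FOXO1 fusion. A screen of 44 libraries at 6 h held 20 compounds, each with 1 low-dose and 1 high-dose library, and 4 libraries of the solvent DMSO, 2 at 0.1% for the low doses and 2 at 0.2% for the high doses. A time course held entinostat, an inhibitor of the histone deacetylases HDAC1/2/3, at 1 µM and 0.1% DMSO at 1, 6 and 24 h, and a further experiment held the HDAC inhibitor N1302 at 1 µM with its own 0.1% DMSO at 6 h, all with 1 library per condition. The doses were 0.5 and 5 µM for LAQ824, Cpd50 and GSKJ4 and 1 and 10 µM for the other 17 compounds of the screen.

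By the target on the label, 7 compounds acted on the acetylation axis, namely LAQ824 (HDAC), WT161 (HDAC6), MC 1568 (HDAC4/5), Merck60 (HDAC1/2), OJI-1 (HDAC8), Bromosporin (bromodomains) and SGC-CBP30 (the CREBBP/EP300 bromodomain). The methylation axis comprised 11 compounds, namely Cpd50 (pan Jumonji), GSKJ4 (JMJD3/UTX), GSKLSD1, LSD-519 and LSD-690 (LSD1), EZ-005 (EZH2), UNC1999 (EZH1), UNC0638 (KMT1C), UNC-1215 (L3MBTL3), PFI-2 (SETD7) and SGC0946 (DOT1L). PFI-3 (SMARCA4) and Trametinib (MEK1/2) belonged to neither. The titles of the screen libraries read RH41 while their cell line label read RH4, so the screen was not tested against the experiments titled RH4. Nothing in the labels says that replicates came from separate cultures, and p-values therefore measure the spread between libraries, which may be technical. In the fit over all screen libraries that spread also includes, for every compound, the difference between its low and high dose.

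Depth, recovered from the TPM steps, ranged from 5737939 to 41415071 reads per library. The file headers named the flow cell of 46 libraries, and the one that held 28 of them, Trametinib and UNC0638 included, carried no DMSO library and had a median of 10571890 reads. Markers of rhabdomyosarcoma were high in the screen, with MYOD1 between 71.0 and 648 TPM and DES between 188 and 768 TPM. The leukocyte marker PTPRC stayed at or below 0.0255 TPM and the epithelial marker EPCAM at or below 0.513 TPM. The DMSO pair of each concentration differed by less than the sampling noise once the flow cell was allowed for, and each pair was counted as 1 sample in a mean ± SD.

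The upstream promoter sequence is shown for 3 genes on which the results turn: EGR1 and IER2, which were lowest with Trametinib, and FOSL2, which was highest with Cpd50. Each stretch holds the 250 bases before the RefSeq transcription start, read 5′ to 3′ on the plus strand of GRCh37, and lies outside the gene span given by the authors. Capitals mark CArG boxes and cores of the cyclic AMP response element (TGACGT or its reverse complement ACGTCA) in EGR1 and FOSL2. In IER2 they mark an ETS core with its flank (CCGGAAG, present as its reverse complement CTTCCGG). Shorter forms of the ETS core were not searched or marked.
EGR1 chr5:137800918-137801167: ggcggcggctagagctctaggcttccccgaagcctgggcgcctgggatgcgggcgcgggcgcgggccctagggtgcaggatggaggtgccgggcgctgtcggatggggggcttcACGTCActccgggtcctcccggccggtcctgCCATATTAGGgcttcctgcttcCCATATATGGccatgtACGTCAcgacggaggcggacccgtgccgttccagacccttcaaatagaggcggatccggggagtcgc
IER2 chr19:13260975-13261224: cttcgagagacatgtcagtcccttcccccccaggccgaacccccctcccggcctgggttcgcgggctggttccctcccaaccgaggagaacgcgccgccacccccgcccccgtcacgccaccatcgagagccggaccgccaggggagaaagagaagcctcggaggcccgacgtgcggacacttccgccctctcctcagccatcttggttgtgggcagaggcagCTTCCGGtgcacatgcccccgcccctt
FOSL2 chr2:28615475-28615724: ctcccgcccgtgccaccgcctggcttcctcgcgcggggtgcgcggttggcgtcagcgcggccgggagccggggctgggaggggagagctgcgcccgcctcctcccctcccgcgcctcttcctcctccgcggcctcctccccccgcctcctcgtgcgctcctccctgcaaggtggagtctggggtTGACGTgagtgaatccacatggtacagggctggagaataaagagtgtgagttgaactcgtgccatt

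The EGR1 stretch held 2 CArG boxes, CCATATTAGG at 105 to 96 bases and CCATATATGG at 83 to 74 bases before the start, and 2 TGACGT cores on the reverse strand. A CArG box was present in 1.14% of 27305 RefSeq promoter stretches of this length, searched on both strands, and in 1 of the 8 member promoters in the table. The TGACGT core was present in 7.42% of all promoters and in those of FOS, FOSB, FOSL2 and EGR1. The flanked ETS sequence CCGGAAG was present in 8.82% of all promoters and in that of IER2. The full element TGACGTCA, which contains the TGACGT core (1.77% of all promoters), and the AP-1 site TGACTCA (4.16%) were found in none of the 8. EGR3 and FOSL1 were not in the table. A match describes the letters of the window and not the binding of a factor. Sequence outside the 250 bases was not searched, so a gene without a match may carry one elsewhere.

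In solvent the 10 genes spanned more than 4 orders of magnitude on the TPM scale, which is corrected for gene length. JUN (chr1:59246463-59249785, hg19), the main AP-1 partner of the FOS proteins, read 376 and 392 TPM at 0.1% and 376 and 385 TPM at 0.2% DMSO. IER2 (chr19:13261282-13265718), which encodes a nuclear protein, followed at 39.0 ± 2.97 TPM (SD, n = 2 DMSO concentrations) and FOSL2 (chr2:28615779-28637516), a FOS relative that lacks a strong activation domain, at 23.9 ± 0.866 TPM. JUNB (chr19:12902310-12904125) read 10.4 and 11.7 TPM at 0.1% and 10.3 and 11.6 TPM at 0.2% DMSO.

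The next pair did not differ beyond the spread of the libraries. EGR1 (chr5:137801181-137805004), the best-known EGR zinc finger factor, read 6.35, 5.14, 5.82 and 5.52 TPM in the 4 DMSO libraries, and FOSL1 (chr11:65659607-65667997), an AP-1 subunit linked to sustained ERK signalling, read 5.87, 4.91, 5.64 and 3.13 TPM. FOS (chr14:75745481-75748937) was low at 0.908, 1.03, 0.776 and 0.678 TPM, only 11 to 18 reads per library. FOSB (chr19:45971253-45978437) at 0.616 ± 0.0948 TPM overlapped with FOS and with EGR2 (chr10:64571756-64578927) at 0.425 ± 0.0756 TPM. EGR3 (chr8:22545174-22550815) had 0 to 2 reads per library. Cells in solvent thus held many JUN transcripts and few of its partner FOS.

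The median over the 4 DMSO libraries titled RH4 gave the same order for the 9 tested genes, from JUN at 177 TPM and IER2 at 25.1 TPM to FOS at 1.05 TPM and EGR2 at 0.322 TPM. These controls differed among themselves. EGR1 read 3.61, 2.53 and 1.97 TPM at 1, 6 and 24 h of the time course and 12.2 TPM in the N1302 experiment, while IER2 read 26.8, 25.3 and 24.9 TPM in the former and 12.7 TPM in the latter. Changes of entinostat and N1302 are therefore given against the DMSO of their own experiment and time.

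**Figure D1:**
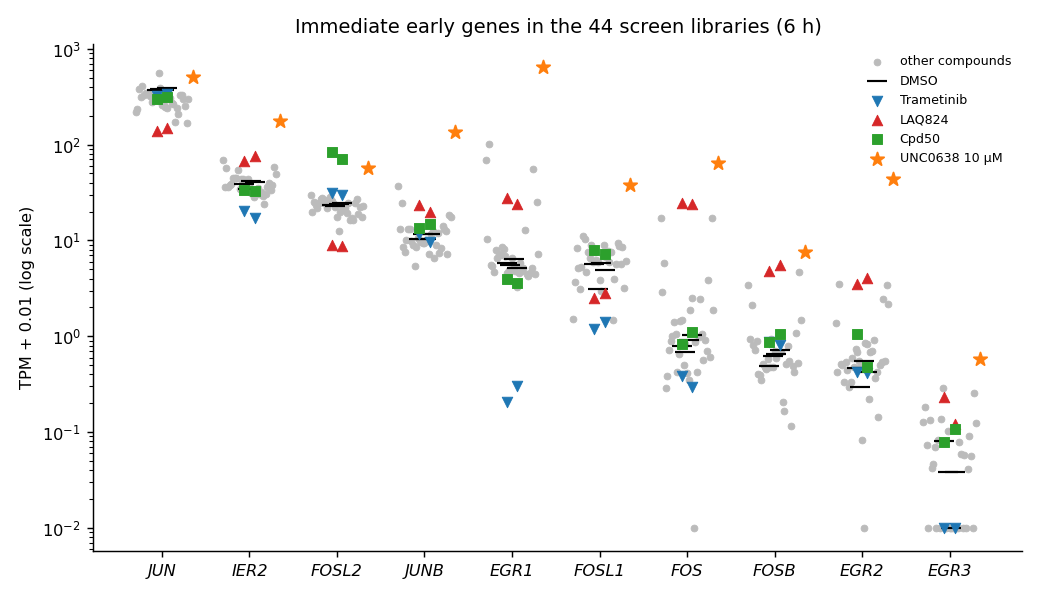
TPM (plus 0.01, log scale) of each gene in the 44 screen libraries at 6 h, ordered by level in solvent. Black bars are the 4 DMSO libraries, coloured marks are compounds named in the key and grey points are the other compounds. Trametinib gave the lowest EGR1, FOSL1 and IER2 values of the screen and UNC0638 at 10 µM the highest EGR1 value, 646 TPM.

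Concentration of the solvent was compared first, since it separates the controls of the doses. No gene passed the adjusted threshold between 0.2% and 0.1% DMSO (limma, 0% of 16359 genes called), with 1548 genes and 1 of the 9 members at an unadjusted p under 0.05. That member was FOS, lower by 0.19 (log2, SE 0.06, adjusted p = 0.527) at 0.2%. Same-numbered DMSO libraries shared a flow cell, and with that number as a replicate block 0% of genes were again called and none of the 9 members was at an unadjusted p under 0.05, where 1768 genes were.

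Trametinib tested what blocking MEK, the kinase directly above ERK, did to these genes. EGR1, FOSL1 and IER2 were lower in both Trametinib libraries than in any of the other 42 screen libraries, whereas JUN, JUNB, FOSB and EGR2 stayed within the range of the other compounds. EGR1 read 0.292 TPM at 1 µM and 0.196 TPM at 10 µM, and the lowest of the other libraries read 3.25 TPM. Only 3 EGR1 reads were seen in each Trametinib library. The ratio of dose-matched DMSO to Trametinib was 19.4 (95% counting interval 6.56 to 94.6) at 1 µM and 28.9 (9.79 to 141) at 10 µM.

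FOSL1 read 1.39 and 1.17 TPM, and was 3.82-fold (1.88 to 9.04) and 3.64-fold (1.91 to 7.81) lower than in dose-matched DMSO. IER2 read 17.2 and 20.2 TPM, 2.40-fold (1.98 to 2.93) and 1.82-fold (1.56 to 2.12) lower. These intervals cover counting error only. The low and high dose gave overlapping intervals for all 3 genes.

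The fit over all 44 screen libraries averaged both doses, and calls required an adjusted p under 0.05 together with a change of 2-fold or more. Trametinib changed 1.55% of all genes by this rule and 1 of the 9 members, FOSL1, which fell by 1.34 on the log2(TPM + 1) scale (SE 0.41, adjusted p = 0.0486). This call was lost in 6 of 14 alternative settings, among them leaving out either DMSO replicate. EGR1 differed by -2.43 (SE 1.12, adjusted p = 0.244) and IER2 by -1.03 (SE 0.34, adjusted p = 0.0780).

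The spread of EGR1 in that fit came largely from the 2 UNC0638 libraries, which read 4.20 and 646 TPM. Without UNC0638, an alternative added after seeing the data, EGR1, IER2 and FOSL1 all fell, with adjusted p-values of 0.0423, 0.000328 and 0.00239. Fitted with DMSO alone, the 3 were called as well (0.000289, 0.00205 and 0.0112), although the spread there came from 4 DMSO libraries and 1 pair of doses. FOS had only 2 and 4 reads in the Trametinib libraries, 0.283 and 0.379 TPM. Its log2 difference from DMSO of -0.47 did not pass in the fit over all libraries (adjusted p = 0.874). Fitted with DMSO alone, under the same limit on the spread, its adjusted p was 0.0149, with the change under 2-fold on the log2(TPM + 1) scale.

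No DMSO library shared the flow cell of Trametinib, so the values were also set against 7 methylation-axis compounds of that flow cell. Their 14 libraries ranged from 3.25 to 646 TPM for EGR1, with a median of 6.34, from 4.68 to 37.5 TPM for FOSL1 and from 28.7 to 177 TPM for IER2. Against them Trametinib changed 1.64% of all genes, and 3 of 9 members fell: FOSL1 by 1.94 (SE 0.36, adjusted p = 0.000605), EGR1 by 3.38 (SE 0.97, adjusted p = 0.0305) and IER2 by 1.12 (SE 0.30, adjusted p = 0.0186). Without UNC0638 in fit and reference, EGR1 and FOSL1 kept their calls, and IER2 differed by -0.99 (adjusted p = 8.91e-05), just under 2-fold. With the high doses alone none of the 9 was called, where EGR1 differed by -4.49 with an SE of 2.54.

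**Figure D2:**
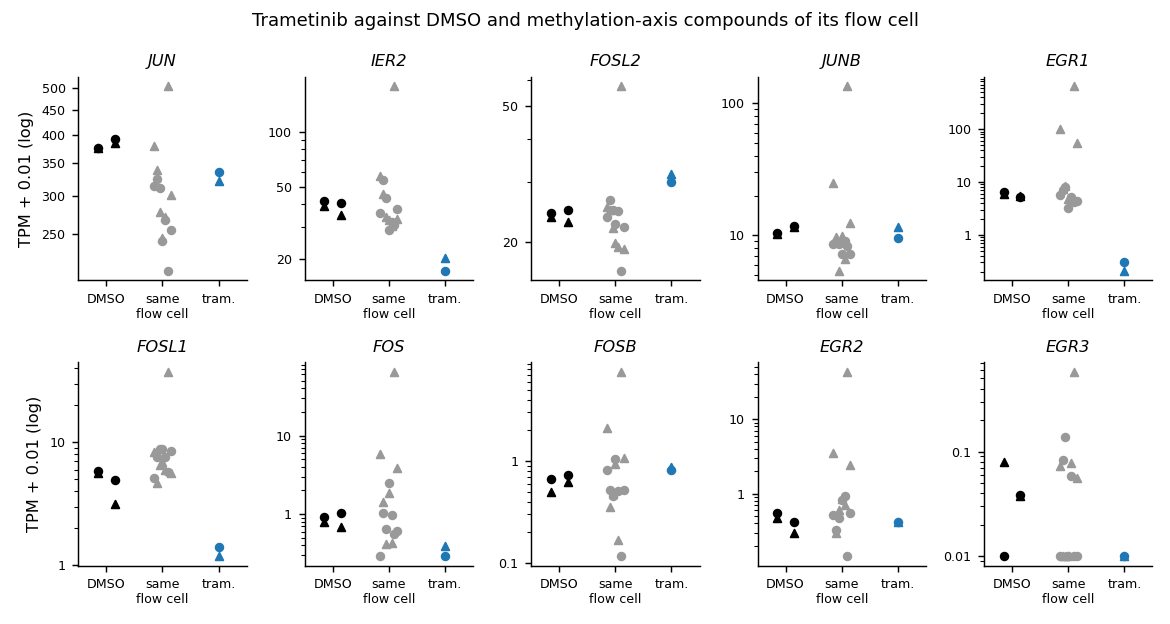
TPM (plus 0.01, log axes that differ between panels) of the 10 genes in the 4 DMSO libraries (black), in 14 libraries of 7 methylation-axis compounds sequenced with Trametinib (grey) and in 2 Trametinib libraries (blue). Circles are low and triangles high doses, or 0.1% and 0.2% DMSO. The blue marks lie below every black and grey mark for EGR1, FOSL1 and IER2.

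FOSL2 read 29.9 and 31.6 TPM with Trametinib, above the 4 DMSO libraries (22.9 to 24.8 TPM). It did not pass in the fit over all libraries (log2 difference 0.35, adjusted p = 0.535). Fitted with DMSO alone, under the same limit on the spread, its adjusted p was 0.0044. Against the methylation-axis compounds of the flow cell it differed by 0.36 (adjusted p = 0.424), and without UNC0638 by 0.42 (adjusted p = 0.0223). All were under 2-fold. JUN read 336 and 322 TPM against 376 to 392 TPM in DMSO (log2 difference -0.22, adjusted p = 0.704, or 0.00554 with DMSO alone). Both values lay above the median of the flow cell compounds, 289.7 TPM (log2 difference 0.15, not passing).

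Other genes of the pathway were examined from lists chosen by name. Of 15 tested ERK feedback and ERK-driven genes, 9 fell and none rose with Trametinib, with a median log2 change of -1.77 against 0.015 over all genes tested. DUSP6, a phosphatase of ERK, fell by 4.81 (adjusted p = 1.55e-07), from 37.4 to 49.8 TPM in DMSO to 0.54 and 0.60 TPM. SPRY4, a feedback inhibitor of receptor signalling, fell by 4.47 (adjusted p = 2.42e-07), and ETV5, an ETS factor, by 4.43 (adjusted p = 1.36e-11). Of 30 further immediate early genes, 2 rose (KLF2 by 1.36 and DUSP2 by 1.00) and 3 fell (IER5 by 1.17, PHLDA1 by 1.14 and MYC by 1.00), with a median of -0.18. None of 10 AP-1 partners and of 13 upstream kinases, SRF factors and EGR cofactors was called.

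LAQ824, an HDAC inhibitor, moved FOS and JUN in opposite directions. It raised FOS from 0.678 to 1.03 TPM in DMSO to 23.9 TPM at 0.5 µM and 24.8 TPM at 5 µM, and JUN, 376 to 392 TPM in DMSO, read 149 and 138 TPM. FOS was 24.5-fold (17.0 to 36.5) and 34.3-fold (22.7 to 54.6) above dose-matched DMSO, and JUN was 2.58-fold (2.5 to 2.65) and 2.75-fold (2.67 to 2.84) below it. Both doses lay outside the DMSO range for each of the 9 tested genes.

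LAQ824 changed 25.7% of all genes, and 5 of the 9 members were called. FOS rose by 3.78 (log2, SE 0.86, adjusted p = 0.000443), FOSB by 1.93 (SE 0.44, adjusted p = 0.00044) and EGR2, which acts in nerve myelination and immune cells, by 1.74 (SE 0.69, adjusted p = 0.0316). FOSL2 fell by 1.35 (SE 0.25, adjusted p = 3.85e-05), to 8.75 and 8.85 TPM, and JUN by 1.40 (SE 0.21, adjusted p = 2.95e-06). Those of FOS, FOSB, FOSL2 and JUN held in every alternative that tested the gene, and that of EGR2 was lost in 4, among them leaving out either DMSO replicate and the DMSO of the same flow cell as reference (adjusted p = 0.0610).

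EGR1 read 24.1 and 27.4 TPM with LAQ824, 4.26-fold (3.70 to 4.92) and 4.85-fold (4.22 to 5.59) above DMSO, and did not pass in the fit over all libraries (log2 difference 2.00, adjusted p = 0.125). Fitted with DMSO alone it did (adjusted p = 9.00e-06). IER2 read 75.2 and 68.0 TPM and JUNB 19.7 and 23.5 TPM, both under 2-fold in the fit (log2 differences 0.86 and 0.91). FOSL1 read 2.82 and 2.51 TPM, below the 4 DMSO libraries. The DMSO libraries of the same flow cell gave log2 differences of 3.78 for FOS and -1.43 for JUN. The summed TPM of 7 rhabdomyosarcoma markers was 1288 and 1344 with LAQ824 against 3386 to 3511 in DMSO, and that of 4 fibroblast markers, mostly COL1A1, 252 and 253 against 93.7 to 107. MC 1568, of the same flow cell, had 374 and 444 TPM of fibroblast markers at 1 and 10 µM. The part of these markers in the result was not tested, and in bulk RNA fewer cells of a type cannot be told apart from less RNA per cell.

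With LAQ824 the listed genes moved both ways. Of 30 further immediate early genes 7 rose and 4 fell, with a median of 0.51 against 0.057 over all genes. RGS2 rose by 3.22, the stress gene GADD45B by 2.58 and the orphan receptor NR4A1 by 2.04, whereas MYC fell by 1.91, ID3 by 1.62 and DUSP2 by 1.55. Of 10 AP-1 partners MAFK rose by 2.91 while MAF fell by 1.46 and JDP2 by 1.25. Of 15 ERK feedback genes 2 rose and 7 fell, with SPRY2 and CCND1 both lower by 2.98. MAP2K1, which encodes MEK1, rose by 1.36 and MKL1, an SRF coactivator, by 1.09, the only calls among 13 upstream genes.

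WT161, labelled as an HDAC6 inhibitor, gave a like pattern at 10 µM and a smaller one at 1 µM. FOS read 1.86 and 17.0 TPM at 1 and 10 µM, EGR1 7.28 and 25.3 TPM, FOSB 1.46 and 4.64 TPM, and JUN 302 and 167 TPM. FOS at 10 µM was 23.5-fold (15.3 to 38.0) above DMSO. WT161 changed 10.7% of all genes and 1 of 9 members, FOSB, which rose by 1.21 (SE 0.44, adjusted p = 0.0277), a call lost at the low dose alone and without either DMSO replicate. JUN differed by -0.76 (adjusted p = 0.00515), short of 2-fold, and FOS by 1.96 (adjusted p = 0.0682). WT161 shared the flow cell of Trametinib, and against the methylation-axis compounds there, with a median of 289.7 TPM for JUN, the JUN difference was -0.40 (adjusted p = 0.0896) and FOSB kept its call. Rhabdomyosarcoma markers summed to 2219 and 1481 TPM at 1 and 10 µM against 3386 to 3511 TPM in DMSO, and heat shock markers to 588 and 620 TPM against 422 to 437 TPM. Every heat shock sum given here holds DNAJB1 and HSPH1 alone, as HSPA1A and HSPA1B on that list read 0 TPM in all libraries. The part of the rhabdomyosarcoma and heat shock markers in the pattern was not tested.

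Bromosporin, which blocks the acetyl-lysine pockets of many bromodomains, raised FOS and EGR1 mostly at the high dose. FOS read 2.89 and 17.1 TPM at 1 and 10 µM, and EGR1 10.3 and 68.4 TPM. Across both doses FOS rose by 2.19 (SE 0.86, adjusted p = 0.0384), the 1 call among 9 members where 13.4% of all genes were called, and it was lost in 4 of 13 settings, among them leaving out either DMSO replicate and the reference of the same flow cell (log2 difference 1.57, adjusted p = 0.0895). EGR1 did not pass (log2 difference 2.07, adjusted p = 0.133). FOSL1 went the other way, at 3.70 and 1.52 TPM, as it did with SGC-CBP30, at 3.96 and 1.45 TPM. Neither passed against DMSO, which was sequenced on other flow cells, but against the methylation-axis compounds of their own flow cell FOSL1 was lower by 1.35 (adjusted p = 0.00286) with Bromosporin and by 1.33 (adjusted p = 0.0142) with SGC-CBP30, both past the rule. JUN read 237 and 218 TPM with Bromosporin and 239 and 170 TPM with SGC-CBP30, with adjusted p-values of 0.00546 and 0.00631 and changes under 2-fold in the fit (log2 differences -0.75 and -0.92). Against the same flow cell these became -0.38 (adjusted p = 0.0967) and -0.55 (adjusted p = 0.0553). SGC-CBP30 left FOS at 1.04 and 2.46 TPM. Rhabdomyosarcoma markers summed to 2384 and 1787 TPM with Bromosporin and 2684 and 1584 TPM with SGC-CBP30 at 1 and 10 µM. Fibroblast markers summed to 194 and 222 TPM with Bromosporin, against 93.7 to 107 TPM in DMSO, which was sequenced on other flow cells. In the other compounds of its flow cell the fibroblast sum ran from 70.0 TPM (OJI-1 at 1 µM) to 206 TPM (PFI-3 at 10 µM). The part of these markers in the result was not tested.

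The other HDAC compounds did not share this pattern. FOS read 0.340 to 1.48 TPM in the 6 libraries of MC 1568, Merck60 and OJI-1, and none of the 9 genes was called. Merck60 at 10 µM gave the highest JUN value of the screen, 560 TPM, 1.47-fold (1.44 to 1.50) above DMSO, where LAQ824 gave the lowest. Differences between HDAC compounds were not tested, as doses and labelled targets differ.

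Cpd50, a pan Jumonji histone demethylase inhibitor, raised FOSL2, the 1 call among the 9 genes. FOSL2 read 70.5 TPM at 0.5 µM and 82.8 TPM at 5 µM against 22.9 to 24.8 TPM in DMSO, 2.87-fold (2.68 to 3.07) and 3.56-fold (3.33 to 3.81) higher and the highest values of the screen. Its rise of 1.64 (SE 0.25, adjusted p = 2.91e-05) was called beside 2.33% of all genes and held in all 14 alternatives. Against the DMSO libraries of the same flow cell it was 1.63 (adjusted p = 0.000455). FOSB (1.03 and 0.859 TPM), FOSL1 (7.24 and 7.91 TPM) and JUNB (14.99 and 13.56 TPM) also lay above the DMSO range at both doses without passing. JUN (315.7 and 298.2 TPM), EGR1 (3.605 and 3.95 TPM) and IER2 (32.54 and 33.95 TPM) lay below it at both doses, likewise without passing. Heat shock markers summed to 222 and 211 TPM with Cpd50 against 422 to 437 TPM in DMSO, and their part in the result was not tested. From the lists, the small MAF gene MAFF rose by 2.51, its relative MAFK by 1.43, the phosphatase gene DUSP5 by 1.42, MAP2K1 by 1.34, KLF10 by 1.19 and the EGR corepressor NAB2 by 1.11. GSKJ4, aimed at the Jumonji enzymes JMJD3/UTX, changed none of the 9 genes, and its difference from Cpd50 was not tested.

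UNC0638, an inhibitor of the histone methyltransferase KMT1C, differed sharply between its doses. At 10 µM EGR1 read 646 TPM, FOS 64.9, EGR2 43.5, JUNB 134, FOSL1 37.5, FOSB 7.50, IER2 177 and FOSL2 57.3 TPM, each above all DMSO libraries. At 1 µM the same genes read 4.20, 0.555, 0.133, 8.35, 5.69, 0.106, 30.8 and 16.4 TPM. There FOSL1 lay within the range of the DMSO libraries and all the others below it. JUN read 505 TPM at 10 µM and 210 TPM at 1 µM, likewise on opposite sides of DMSO.

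Relative to dose-matched DMSO, EGR2 at 10 µM was 120-fold (72.8 to 213), EGR1 114-fold (101 to 130) and FOS 89.9-fold (58.9 to 143.7) higher. EGR3 gave its highest screen value, 0.57 TPM, from 6 reads against 3 in 2 DMSO libraries, a ratio of 12.1 (2.59 to 74.9). Across both doses 4.4% of all genes were called, and FOS, FOSL1, JUNB, EGR1 and EGR2 rose, with log2 changes from 1.47 for FOSL1 to 3.12 for EGR1. These 5 calls rest on the high-dose library. They were lost at the low dose alone and when UNC0638 was fitted with DMSO alone (adjusted p-values from 0.251 to 0.353), and that of EGR1 also against the same flow cell (adjusted p = 0.0604). Leaving out either DMSO replicate ended 4 of them, and FOSL1 was lost without replicate 2 and kept without replicate 1.

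The change at 10 µM extended to other inducible genes. These counts come from a fit of the high dose alone, with 1 UNC0638 library and a spread taken from the 4 DMSO libraries, so its p-values are too small, and 20.3% of all genes were called in it, 1105 up and 2214 down. Of 30 further immediate early genes 19 rose and none fell in that library, with MAFF up by 4.0, NR4A1 by 3.22 and ZFP36 by 3.10, and the median was 1.34 against -0.17 over all genes. Of 15 ERK feedback genes 11 rose, among them IL11 by 2.24 and DUSP6 by 2.23. Heat shock markers summed to 360 TPM at 10 µM and 370 TPM at 1 µM, against 422 to 437 TPM in DMSO. Rhabdomyosarcoma markers summed to 2541 TPM at 10 µM and 2779 TPM at 1 µM, against 3386 to 3511 TPM. Both sums were thus below DMSO at the low dose too. Whether the response comes from the labelled target was not tested.

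EZ-005 (EZH2) and UNC1999 (EZH1) also had high EGR1 at 10 µM. EGR1 read 5.57 and 102 TPM with EZ-005 and 4.41 and 55.5 TPM with UNC1999 at 1 and 10 µM, the high values 18.1-fold (15.8 to 20.7) and 9.81-fold (8.53 to 11.3) above DMSO. FOS read 5.81 and 3.81 TPM at 10 µM. No member passed with both doses averaged for either compound. PFI-2 and SGC0946, the other 2 methyltransferase inhibitors, had 3.25 to 5.16 TPM of EGR1.

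In the fits of the high doses alone, for all of which the same limit holds, UNC0638 raised 8 of 9 members beside 20.3% of all genes. EZ-005 raised FOS, JUNB, EGR1 and EGR2 beside 0.954% of all genes, and UNC1999 raised FOS, EGR1 and EGR2 beside 1.5%. Bromosporin raised 4 and lowered 1 beside 26.4%, WT161 raised 4 and lowered 1 beside 20.3%, and LAQ824 raised 5 and lowered 2 beside 25.7%. SGC-CBP30 raised 1 and lowered 2 beside 6.53%, Cpd50 raised 1 beside 3.26%, and Trametinib lowered 2 beside 2.07%. The 38 calls compare with 14 in the fit of both doses.

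**Figure D3:**
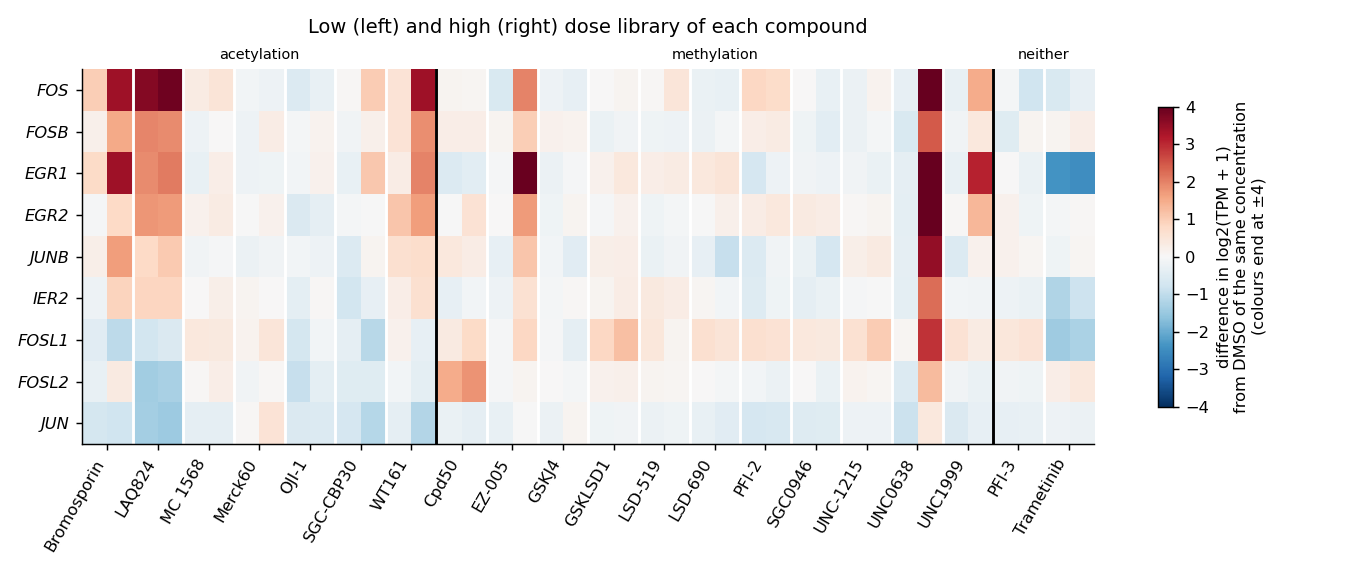
Difference in log2(TPM + 1) of each tested gene from DMSO of the same concentration, for the low (left) and high (right) dose of each compound, grouped by axis. Red is higher and blue lower than DMSO, and colours end at 4 in either direction. FOS is red and JUN blue for LAQ824 at both doses, FOSL2 is red for Cpd50, and EGR1 is red at the high dose alone of UNC0638, EZ-005 and UNC1999.

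The step from low to high dose was tested over 20 compounds, with compound as a block. No gene passed the adjusted threshold (limma, 0% of 16359 called), with 2874 genes at an unadjusted p under 0.05, EGR1 and FOSB among them. EGR1 was higher at the high dose in 16 of 20 compounds, past 2-fold in 6, with a mean step of 1.07 (SE 0.38, adjusted p = 0.173). Its median step was 0.22, and its largest steps were 6.96 with UNC0638 and 3.97 with EZ-005. FOS was higher in 11 of 20, with a mean step of 0.64 (SE 0.31, adjusted p = 0.286), of which UNC0638 alone contributed a step of 5.40.

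Axes were compared over compound means, 7 against 11. No gene was called (limma, 0% of 16359), with 5018 genes at an unadjusted p under 0.05, or 30.7%, and 3 of 9 members. FOSL1 was lower on the acetylation axis by 0.85 (SE 0.21, adjusted p = 0.0568), with a median of 3.36 TPM over acetylation-axis compounds and 7.57 TPM over methylation-axis compounds. FOSL2 differed by -0.54 (adjusted p = 0.129) and JUN by -0.34 (adjusted p = 0.153). FOS, at 0.371 to 24.3 TPM on the acetylation axis and 0.522 to 9.12 TPM on the methylation axis, did not separate them (log2 difference 0.80, SE 0.49, adjusted p = 0.264). The adjusted p of FOSL1 came under 0.05 when MC 1568, Merck60 or OJI-1 was left out, and that of JUN when Merck60 was.

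Entinostat addressed the course of events after HDAC inhibition. At 1 h no member was past 2-fold on the log2(TPM + 1) scale, beside 1.24% of all genes. JUN read 240 TPM against 167 TPM in DMSO, 1.44-fold (1.39 to 1.49) higher, the widest log2(TPM + 1) difference among the members at that time, but the 4 DMSO libraries titled RH4 ranged from 167 to 246 TPM, which holds the entinostat value, and FOSL2 was 0.830-fold (0.738 to 0.934). FOS read 0.901 TPM against 1.18 TPM (0.763-fold, 0.399 to 1.42) and EGR1 3.75 TPM against 3.61 TPM, neither separated by counting error. These libraries have no replicate, and no p was computed.

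At 6 h FOS read 2.30 TPM against 0.928 TPM in DMSO, 2.47-fold (1.51 to 4.20) higher, and EGR2 0.706 TPM against 0.152 TPM, 4.64-fold (1.78 to 15.4), from 29 and 5 reads. On the log2(TPM + 1) scale, which shrinks low values, no member was past 2-fold beside 6.08% of all genes, and with a pseudocount of 0.1 both were. JUN stayed 1.34-fold higher, at 248 TPM, and EGR1, at 3.49 TPM against 2.53 TPM, was 1.38-fold (1.05 to 1.82) higher. The DMSO library of the N1302 experiment at the same time read 2.31 TPM for FOS, 0.665 TPM for EGR2, 246 TPM for JUN and 12.2 TPM for EGR1, so that the entinostat values at 6 h were level with it or, for EGR1, below it. Against the mean of both 6 h DMSO libraries the log2 differences went from 0.77 to 0.38 for FOS, from 0.57 to 0.30 for EGR2 and from 0.42 to 0.21 for JUN, and turned for EGR1 (0.35 to -0.61), FOSL1 (0.50 to -0.12) and FOSL2 (0.01 to -0.51).

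By 24 h FOS read 10.4 TPM against 0.896 TPM, 11.6-fold (7.66 to 18.2) higher, and EGR1 25.3 TPM against 1.97 TPM, 12.8-fold (10.2 to 16.3). EGR2 read 2.13 TPM against 0.232 TPM, 9.17-fold (4.59 to 20.8), and FOSL2 28.8 TPM against 12.4 TPM, 2.33-fold (2.12 to 2.56). These 4 of 9 were past 2-fold on the log2(TPM + 1) scale, beside 22.4% of all genes. IER2 at 50.9 TPM against 24.9 TPM fell just short with a difference of 0.9997, and JUN was 1.47-fold higher at 247 TPM. At 24 h FOS, EGR1, EGR2, FOSL2 and IER2 lay above each of the 4 DMSO libraries titled RH4. The highest values of those controls were 2.31, 12.2, 0.665, 27.5 and 26.8 TPM. FOS and EGR1 at 1 and 6 h and JUN at 1 h lay within the range of these controls, EGR2 at 6 h (0.706 TPM) and JUN at 6 and 24 h were just above it, and no order among the members was drawn.

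Other inducible genes followed a like course over the 3 times. None of 30 further immediate early genes was past 2-fold at 1 h. At 6 h 6 were higher, led by PLK2 at 1.54, ATF3 at 1.48 and CTGF at 1.47 on the log2 scale, and at 24 h 15 were, led by CTGF at 5.39, CYR61 at 4.05 and GADD45B at 3.68. The median of the list at 24 h was 1.00 against 0.095 over all genes. Rhabdomyosarcoma markers summed to 1198 TPM with entinostat at 24 h against 2681 TPM in DMSO, and fibroblast markers to 92.0 TPM against 11.2 TPM, with COL1A1 at 67.9 TPM and LUM at 16.2 TPM. Their part in the 24 h values was not tested.

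**Figure D4:**
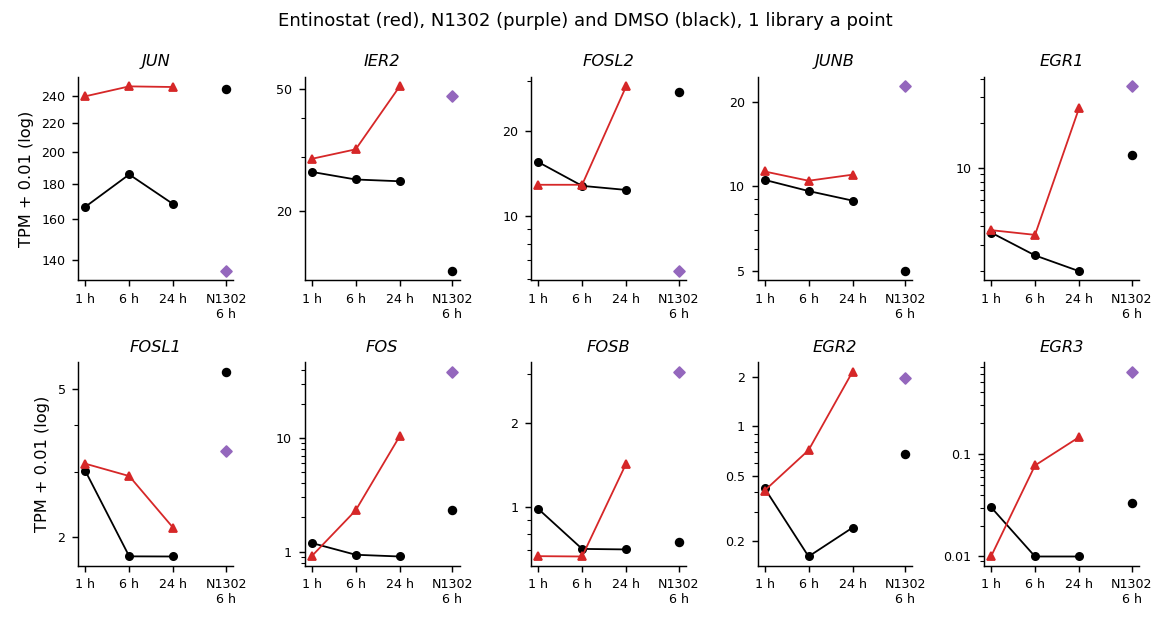
TPM (plus 0.01, log axes that differ between panels) of the 10 genes with entinostat at 1 µM (red) and DMSO (black) at 1, 6 and 24 h, and with N1302 at 1 µM (purple) and its DMSO at 6 h. Each point is 1 library with no error bar. At 6 h the entinostat values of FOS and JUN are level with the DMSO of the N1302 experiment, at 24 h those of FOS and EGR1 lie above every DMSO library, and JUN and FOSL2 lie below DMSO with N1302.

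N1302 had 6 of 9 members past 2-fold at 6 h, beside 30.9% of all genes. FOS read 38.3 TPM against 2.31 TPM, 16.6-fold (12.4 to 22.6) higher, FOSB 4.13-fold, JUNB 4.55-fold, IER2 3.72-fold and EGR1, at 35.6 TPM against 12.2 TPM, 2.92-fold (2.58 to 3.31) higher. FOSL2 was 4.31-fold (3.68 to 5.08) lower, at 6.38 TPM against 27.5 TPM, and JUN read 135 TPM against 246 TPM. EGR3 had 19 reads against 1, a ratio of 27.2 (4.32 to 1128). With median-ratio scaling the log2 difference of JUN went from -0.86 to -0.51 and that of FOSL2 from -1.95 to -1.66, and against the mean of both 6 h DMSO libraries that of EGR1 went from 1.47 to 2.43 and that of FOSL1 turned from -0.57 to 0.05. Rhabdomyosarcoma markers summed to 1820 TPM with N1302 against 2723 TPM in its DMSO, and their part in the result was not tested. High FOS beside low JUN and FOSL2 was seen with N1302 and LAQ824 at 6 h, each against its own DMSO. Entinostat and N1302 were both dosed at 1 µM in separate experiments, and the difference between them was not tested.

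Genes whose levels followed those of FOS, JUN and EGR1 most closely were ranked by Spearman correlation of log2(TPM + 1) over the 44 screen libraries, which share compounds and flow cells. For FOS these were PIM3 (0.757), RBM44 (0.754) and CSRNP1 (0.716). For JUN they were FOXC2 (0.863), IRS1 (0.859) and DYRK2 (0.815), and for EGR1 CRY1 (0.786), TIPARP (0.766) and ABHD17B (0.752). Pearson correlations ranged from 0.623 for ABHD17B to 0.903 for IRS1.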

How the data were processed

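Poly-A selected RNA of FP-RMS cells was sequenced in 52 paired-end libraries. Per the paper, reads were aligned to hg19 with STAR and expression was computed with RSEM. The authors deposited TPM values per gene, normalised for gene length and library size without pooling replicates. The processing tools named on the labels were STAR and edgeR, and the role of edgeR is not given in the sources used here. Which tool gave the deposited values was not tested. Samples were grouped from the labels.

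The 10 genes and the 4 gene lists were chosen with earlier results of these data known. In each comparison up to 3 listed genes per direction are named, those with the largest change among the ones that passed. For FOS, JUN and EGR1 the 3 genes with the highest Spearman correlation are named.

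Changes were computed after adding a pseudocount of 1 to each TPM and taking log2, which shrinks those of genes with low values. Genes with at least 1 TPM in 2 or more libraries were tested, 16359 of 27043. Adjusted p-values are those of limma 3.58.1 (R 4.3.3, lmFit and eBayes with trend, two-sided) after Benjamini-Hochberg adjustment over all genes tested, with the compounds of the screen in 1 fit, both doses averaged and the 4 DMSO libraries as reference. The fit was tested on simulated data.

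Whole reads were recovered from the TPM steps in 100% of 23645 genes with a value above 0 (tolerance 0.02 of a read). They give the depth (median 15055060 reads per library) and exact 95% Poisson intervals of ratios, which cover counting error only. Over 10378 genes with 100 or more reads in each of the 4 screen DMSO libraries, the variance relative to counting noise was 3.18 for concentration, 2.98 for flow cell and 0.991 for the remainder, and same-concentration libraries were therefore counted as 1 in means ± SD. Same-numbered DMSO libraries shared a flow cell per the file headers, so the number marks a sequencing batch, and a replicate block was fitted as an alternative (correlation of their deviations 0.0719). Between the experiments titled RH4, and in the time course, conditions had 1 library and no test.

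Alternatives covered the pseudocount, scaling, filter, dose, DMSO replicates, samples in the fit and the reference. Python 3.11.15 with pandas 2.3.3, numpy 2.4.6 and scipy 1.17.1 did the rest, and promoter stretches came from RefSeq and were placed on GRCh37.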

Additional observations from a re-analysis of the deposited data

Results flagged for a closer look

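FOSL2 with entinostat moved in opposite directions at different times. At 1 h it read 12.9 TPM against 15.5 TPM in DMSO, 0.83-fold, with a counting interval of 0.738 to 0.934, and at 24 h 28.8 TPM against 12.4 TPM, 2.33-fold, with an interval of 2.12 to 2.56. The 4 DMSO libraries titled RH4 ranged from 12.4 to 27.5 TPM. Each time has 1 library per condition, so the difference between the times was not tested against variation between cultures. A search for single libraries far from the rest of their group (Dixon's criterion, 20 groups) found 0, where chance alone marks about 1 in 20.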

How the results depend on the processing

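With Trametinib against DMSO 1 member was called. The number was 2 with a pseudocount of 0.1, with the high doses alone and with the low doses alone, 3 with its own libraries and DMSO alone or without UNC0638, and 0 with median-ratio scaling, without a filter, with voom on recovered reads and without either DMSO replicate (range 0 to 0). The screen's 14 calls became 8 without a filter, 7 with a mean TPM of at least 5, which leaves fewer members to test, 38 with the high doses alone and 5 to 6 without 1 DMSO replicate, and 5 of the 14 held in every alternative that tested the gene. Against the flow cell of Trametinib 3 calls became 0 with the high doses alone. Between the axes 0 became 1 with median-ratio scaling and with the mean TPM filter at 5, and 0 to 2 when 1 acetylation-axis compound was left out. For entinostat at 6 h 0 members past 2-fold became 2 with a pseudocount of 0.1. With Trametinib against DMSO, directions turned for JUNB and EGR2, neither of them a call. JUN with Trametinib, also not a call, was -0.22 against DMSO and 0.15 against the methylation-axis compounds of its flow cell. Against the mean of both 6 h DMSO libraries, directions turned for EGR1, FOSL1 and FOSL2 with entinostat and for FOSL1 with N1302. With Trametinib JUNB was 0.073 with the high doses alone and -0.126 to 0.022 without 1 DMSO replicate, and EGR2 was 0.017 with voom and -0.091 to 0.065 without 1 DMSO replicate, on the log2 scale. Otherwise the cause of these changes was not tested. Leaving out UNC0638 and voom were added after the data were seen. With a replicate block for the flow cell that same-numbered DMSO libraries share, 0 genes were called between the concentrations, as without it. Members at an unadjusted p under 0.05 went from 1 to 0. Variance between the concentrations was 3.18 times counting noise, so the lack of calls does not show that they were alike. As deposited, the median log2 difference of all genes was -0.12 for Bromosporin and UNC0638, 0.13 for GSKLSD1 and 0.26 for MC 1568, and median-ratio scaling brought it to 0.048 for MC 1568 and nearer 0 for the others. Low read numbers limit FOS, FOSB, EGR2 and EGR3 in solvent.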
